A study of Rattus norvegicus with 30 samples.

Results

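The AP-1 family was followed through every probe set whose annotated gene symbol was Fos, Fosb, Fosl1, Fosl2, Jun, Junb, Jund or Atf3. This gave 8 of the 14217 genes named on the array, through 14 of its 31099 probe sets. Hearts came from male Crl:WI(Han) (Wistar Han) rats given isoproterenol, a synthetic relative of adrenaline that acts on beta receptors, or given vehicle. The isoproterenol groups had 5, 4, 4 and 5 arrays at 1, 3, 24 and 72 h, and each vehicle group had 3 arrays at the same times. The dose is labelled 0.5 with the unit mg/kg/ml, and vehicle animals carry a dose of 0. The design text names 48 h where the sample labels name 72 h, and the labels are followed. Arrays are titled as biological replicates, but no source used here says that each is a separate animal. If some are not, the p-values cover the spread between arrays, which may be technical. No source used here gives the animals' age.

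AP-1 is a dimer of basic leucine zipper (bZIP) proteins that binds DNA at the TPA response element. Fos-type proteins (Fos, Fosb, Fosl1, Fosl2) cannot pair with themselves and bind DNA with a Jun-type partner (Jun, Junb, Jund), whereas Jun-type proteins can also pair with each other. Atf3 belongs to the ATF/CREB branch, pairs with Jun proteins among others, and is induced by many kinds of cell stress. Several of these genes are immediate early genes: their transcription starts without new protein synthesis, and their mRNAs are short-lived. In heart muscle cells, catecholamines raise cAMP, which activates protein kinase A and the factor CREB, and MAP kinases act on the factors that bind the serum response element of Fos.

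The cyclic AMP response element (CRE), where CREB binds, is spelled TGACGTCA, and its core TGACG. Promoter windows of 250 bases before to 50 after the start, from RefSeq on build GRCr8, were given for 5 of the 8 genes (Fosb, Fosl1, Fosl2, Junb and Jund). Those of Junb, Fosl1 and Jund are shown because they hold one of these motifs. Capitals mark each match on either strand (CGTCA is the core on the other strand), and sequences read 5′ to 3′ in the direction of the gene.
Junb, chr19:40080876-40081175, plus strand: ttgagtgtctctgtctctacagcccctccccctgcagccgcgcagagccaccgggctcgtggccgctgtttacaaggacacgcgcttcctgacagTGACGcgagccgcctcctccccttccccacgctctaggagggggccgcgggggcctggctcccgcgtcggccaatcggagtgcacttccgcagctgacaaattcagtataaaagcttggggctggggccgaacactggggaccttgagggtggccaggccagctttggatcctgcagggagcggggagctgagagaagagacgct
Fosl1, chr1:212183635-212183934, plus strand: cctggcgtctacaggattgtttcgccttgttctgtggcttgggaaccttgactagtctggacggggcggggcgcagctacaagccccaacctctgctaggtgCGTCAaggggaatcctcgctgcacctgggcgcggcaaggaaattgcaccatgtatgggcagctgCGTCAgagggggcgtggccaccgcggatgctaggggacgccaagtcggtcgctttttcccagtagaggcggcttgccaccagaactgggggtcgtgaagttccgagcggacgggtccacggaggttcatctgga
Jund, chr16:18769722-18770021, minus strand: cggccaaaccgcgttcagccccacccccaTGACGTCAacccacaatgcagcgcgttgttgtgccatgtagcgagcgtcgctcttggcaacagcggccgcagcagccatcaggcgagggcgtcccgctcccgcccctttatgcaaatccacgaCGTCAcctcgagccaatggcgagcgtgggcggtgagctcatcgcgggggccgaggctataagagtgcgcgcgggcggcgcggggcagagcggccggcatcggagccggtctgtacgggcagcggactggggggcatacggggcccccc

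Jund was the only one of the 5 with the whole CRE, at bases -221 to -214 from the start, a motif found in 1.83% of 33469 promoter windows of the same length. The 2 core matches inside that element overlap it, and a further core lies at -98 to -94. Junb has 1 core match at -155 to -151, and Fosl1 has 2, at -148 to -144 and at -84 to -80. The core occurs in 21.2% of all windows. The TPA response element, TGANTCA, is in 7.33% of windows and the CArG box, where serum response factor binds, in 1.64%, and neither was in any of the 5. The windows of Fosb and Fosl2 held none of the 4 motifs. These matches are of letters only, and binding was not measured.

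Arrays differed in brightness, with medians between 21.2 and 70.3, so values are given as log2(intensity + 16) after quantile normalization. A probe set was tested if its deposited intensity reached 23 on at least 3 arrays. On the log2 scale that is 5.285, called the detection level below, although no detection call was made. Changes against a group below that level understate the true ratio. Of the 14 family probe sets, 12 were among the 24292 tested. The other 2, Fos 1371283_at and Jund 1375768_at, reached the level on 0 arrays, with highest intensities of 20.5 and 16.2, and give no information on their genes. Fosb, Fosl1 and Fosl2 passed mostly through the isoproterenol arrays of the early times, where they are bright, so counts over the tested probe sets describe the family and do not test it. Without normalization the median change of all probe sets was -0.23, -0.19, 0.47 and 0.36 at 1, 3, 24 and 72 h, and values given below without normalization contain that shift. At 24 h it turned 1782 higher and 1387 lower calls over all probe sets into 3078 and 17. The labels also carry a number, from 33 to 62 for isoproterenol and from 4 to 21 for vehicle. What it counts is not established here, and treatment cannot be told apart from whatever it orders. All 7 cardiomyocyte markers tested reached an intensity of 23 on every array, and their summed normalized intensity at 1, 3 and 72 h overlapped between treatments. Their mean log2 levels, 12.53 to 13.32, lie near the top of the scale. Quantile normalization leaves values little room to differ there, so the overlap says little. At 24 h the sum was 52320 to 59920 on isoproterenol arrays and 61780 to 63640 on vehicle arrays, with no overlap, and 1 of the 7, Ryr2, was lower (-0.52, adjusted p = 0.029). The difference between 3′ and 5′ probe sets for beta-actin, a measure of RNA integrity, averaged on the log2 scale 1.85 and 1.91 in the isoproterenol groups at 1 and 3 h, against 1.56 and 1.28 in the vehicle groups. At 24 h it went the other way, 1.06 with isoproterenol against 1.69 with vehicle, and at 72 h it was 1.35 in both. Single vehicle arrays of 3 h ranged from 0.84 to 1.96. For GAPDH the same difference lay between 0.27 and 0.51 on all arrays, and the treatments overlapped at each time. Its range at 24 h was 0.33 to 0.51 with isoproterenol and 0.32 to 0.37 with vehicle. The part of RNA integrity in the results below was not tested. In whole heart, more RNA per cell and more cells of a type that carries it cannot be told apart.

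Isoproterenol hearts held much more mRNA of Fosb, Fos, Fosl2, Junb and Atf3 at 1 and 3 h, and of Fosl1 with a later peak. At 1 h, 7 of the 12 family probe sets were higher with isoproterenol (limma adjusted p under 0.05), against 1.83% of all probe sets. At 3 h, 9 of 12 were higher, against 6.1% of all. By 24 h only Atf3 passed, 1 of 12 against 7.34% of all, and at 72 h the probe sets of Fos, Atf3 and Jun passed, 3 of 12 against 9.37%. By limma 0 were lower with isoproterenol at any of the 4 times, also at an unadjusted p under 0.05. Taking the brightest probe set of each gene, 6, 8, 1 and 3 of the 8 genes were higher at 1, 3, 24 and 72 h, against 2.37%, 6.94%, 10% and 13.3% of the 12451 genes tested. The median change over the 12 probe sets was 1.78, 1.96, 0.27 and 0.39 on the log2 scale at those times, where that of all probe sets lay between -0.05 and -0.02.

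**Figure D1:**
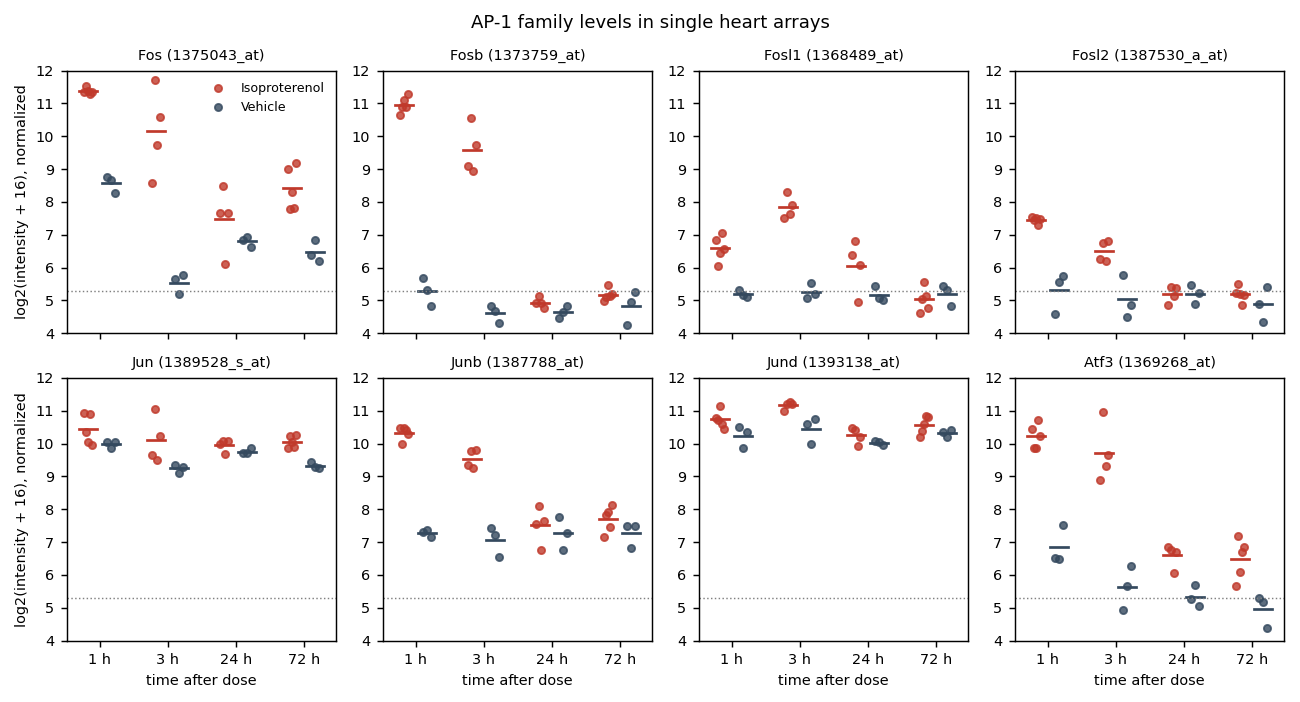
Normalized log2(intensity + 16) of each AP-1 gene's brightest probe set, 1 point per array, for isoproterenol (red, left) and vehicle (dark, right) at 1, 3, 24 and 72 h; bars are group means and the dotted line is the detection level of 5.285. At 1 h the isoproterenol and vehicle points lie far apart for Fos, Fosb, Fosl2, Junb and Atf3, while those of Jun and Jund stay between 9 and 11.3 throughout.

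Fosb, a Fos-type partner known from lasting responses of neurons as well as from muscle, made the largest change of the family. At 1 h its log2 level was 10.64, 10.89, 11.12, 10.88 and 11.29 on the isoproterenol arrays, against 5.67, 5.32 and 4.83 on the vehicle arrays. All 5 isoproterenol arrays were far above the vehicle arrays, whose mean was under the detection level. The log2 change was 5.69 ± 0.26 (SE, adjusted p = 7.27e-16), or 51.7-fold on this scale. At 3 h Fosb was at 9.09, 10.55, 8.94 and 9.72 with isoproterenol, against 4.83, 4.68 and 4.31 with vehicle, a change of 4.97 ± 0.27 (adjusted p = 2.53e-14). The groups were again fully apart. At 24 h all Fosb values lay between 4.78 and 5.12 with isoproterenol and between 4.45 and 4.83 with vehicle, and the change of 0.29 ± 0.27 did not pass (adjusted p = 0.564). Group means of both treatments were under the detection level at 24 and 72 h, so no level of Fosb can be given there.

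Fos, the founding member, had group means above the detection level in both treatments and responded at 3 of the 4 times. The vehicle mean of 3 h, 5.54, was close to that level, and the lowest vehicle array there, at 5.19, was under it. At 1 h its level was 11.33, 11.53, 11.38, 11.30 and 11.36 with isoproterenol, against 8.76, 8.66 and 8.27 with vehicle, a log2 change of 2.82 ± 0.44 (adjusted p = 6.25e-05). The 5 isoproterenol arrays hardly differed (SD 0.09). At 3 h the isoproterenol arrays spread widely, at 8.57, 11.71, 9.72 and 10.59 (SD 1.33), and the vehicle arrays lay at 5.65, 5.19 and 5.78. Although 1 isoproterenol array kept the level of 1 h and another was about 3 units lower, all 4 were above all vehicle arrays. The change at 3 h was 4.61 ± 0.46 (adjusted p = 1.27e-08).

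Vehicle hearts themselves changed in Fos over time. The vehicle mean was 8.56 ± 0.26 at 1 h, 5.54 ± 0.31 at 3 h, 6.80 ± 0.16 at 24 h and 6.47 ± 0.34 at 72 h (SD, n = 3 each). Fos fell by 3.03 ± 0.49 on the log2 scale at 3 h relative to 1 h within vehicle hearts (adjusted p = 0.00637), 1 of the 12 family probe sets where 0.0123% of all probe sets fell. At an unadjusted p under 0.05, 5 of the 12 were lower at 3 h in vehicle hearts, Fos among them. The share of all probe sets at that unadjusted cutoff is not given here. This count and the other unadjusted counts below therefore have no background and show no shift of the family. Fos was also the only family probe set to pass a test for any difference among the 4 vehicle groups (adjusted p = 0.0293, against 0.0988% of all), with 3 of 12 at an unadjusted p under 0.05. That call was lost in 6 of 12 fits without 1 vehicle array: all 3 of 1 h (adjusted p = 0.124, 0.108 and 0.0539), 3 h replicate 2 (0.0666) and 24 h replicates 1 and 3 (0.0513 and 0.0506). It was also lost with a pseudocount of 64 (0.0732) and without the intensity trend (0.0538). The drop lost its call without vehicle 1 h replicate 1 (adjusted p = 0.141) or 2 (0.0942), or without vehicle 3 h replicate 2 (0.0925), with a change between -2.98 and -2.85 there, and with a pseudocount of 64 (-2.17, 0.0869). So the larger isoproterenol change at 3 h goes with a lower vehicle level: the isoproterenol mean itself was 11.38 at 1 h and 10.15 at 3 h. The change at 3 h minus that at 1 h was 1.79 ± 0.63 and did not pass (adjusted p = 0.21), except without isoproterenol 3 h replicate 1, where it was 2.32 (0.0418). Within isoproterenol arrays, Fos at 3 h minus 1 h was -1.23 ± 0.40 (adjusted p = 0.0818). Without the highest array of 3 h, replicate 2, it was -1.75 (adjusted p = 0.00647).

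At the later times Fos passed at 72 h and not at 24 h. At 24 h it was at 7.66, 8.47, 6.10 and 7.65 with isoproterenol, against 6.84, 6.94 and 6.62 with vehicle. The groups overlapped, because isoproterenol replicate 3 lay below every vehicle array, and the change of 0.67 ± 0.46 did not pass (adjusted p = 0.392). At 72 h the values were 9.0, 7.78, 8.29, 7.82 and 9.18 with isoproterenol, against 6.38, 6.84 and 6.19 with vehicle, with no overlap. The change of 1.94 ± 0.44 passed (adjusted p = 0.0023), and it did so under every alternative run. The difference between the 72 h and 24 h changes was 1.27 ± 0.63 and did not pass (adjusted p = 0.369), so a second rise was not shown.

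Fosl2 (Fra-2), a Fos-type protein that lacks the strong transactivation domain of Fos, has 2 probe sets, and both rose at 1 and 3 h by different amounts. Probe set 1383860_at was at 8.21, 8.61, 8.72, 8.37 and 9.06 at 1 h with isoproterenol, against 5.47, 4.55 and 4.40 with vehicle. Probe set 1387530_a_at was at 7.53, 7.45, 7.50, 7.31 and 7.47 with isoproterenol, against 4.60, 5.58 and 5.74 with vehicle. Neither pair of groups overlapped. The log2 changes were 3.79 ± 0.26 (adjusted p = 5.08e-12) and 2.15 ± 0.27 (adjusted p = 1.15e-06). At 3 h they were 2.99 ± 0.27 (adjusted p = 2.36e-09) and 1.46 ± 0.28 (adjusted p = 0.000452), and at 24 h neither passed. Without normalization the smaller 3 h change, 1.13, lost its call (adjusted p = 0.0726).

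Fosl1 (Fra-1), the other Fos-type protein without that domain, peaked later. At 1 h it was at 6.86, 6.05, 6.45, 7.06 and 6.58 with isoproterenol, against 5.31, 5.16 and 5.09 with vehicle, a change of 1.41 ± 0.29 (adjusted p = 0.00239). At 3 h it was at 7.51, 8.30, 7.64 and 7.89 with isoproterenol, against 5.07, 5.55 and 5.20 with vehicle, a change of 2.56 ± 0.30 (adjusted p = 2.75e-07). The groups were apart at both times, and every isoproterenol array of 3 h was above every isoproterenol array of 1 h. The isoproterenol level at 3 h exceeded that at 1 h by 1.24 ± 0.26 (adjusted p = 0.00453), the only such rise in the family. Without normalization the 1 h change (1.26, adjusted p = 0.11) and this rise (1.02, adjusted p = 0.24) lost their calls. At 24 h Fosl1 was at 6.39, 6.81, 4.94 and 6.08 with isoproterenol, against 5.44, 5.08 and 5.02 with vehicle. Of the 4 isoproterenol arrays, 3 were above all vehicle arrays and replicate 3 was below them. The change of 0.87 ± 0.30 just missed (adjusted p = 0.0514), and without replicate 3 it was 1.24 (adjusted p = 0.00104). At 72 h the groups overlapped at background.

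Junb, a Jun-type protein that weakens Jun activity in some settings and replaces it in others, had the largest changes among the Jun-type genes. At 1 h it was at 10.48, 10.00, 10.48, 10.43 and 10.28 with isoproterenol, against 7.30, 7.36 and 7.15 with vehicle, a change of 3.06 ± 0.25 (adjusted p = 3.04e-10). At 3 h it was at 9.34, 9.76, 9.24 and 9.80 with isoproterenol, against 7.43, 7.21 and 6.56 with vehicle, a change of 2.47 ± 0.26 (adjusted p = 4.73e-08). The groups did not overlap at either time. At 24 h the range was 6.77 to 8.11 with isoproterenol and 6.75 to 7.76 with vehicle, and at 72 h it was 7.16 to 8.11 with isoproterenol and 6.82 to 7.49 with vehicle, so both later comparisons overlapped. The later changes of 0.25 ± 0.26 and 0.43 ± 0.25 did not pass (adjusted p = 0.613 and 0.269).

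Jun, the Jun-type protein with the strongest transactivation, was bright in all groups, and most of its tests did not pass. Its brightest probe set, 1389528_s_at, was at 10.92, 10.35, 10.04, 10.89 and 9.95 at 1 h with isoproterenol, against 10.05, 9.86 and 10.06 with vehicle, and the groups overlapped. That change was 0.44 ± 0.23 (95% interval -0.03 to 0.90, adjusted p = 0.454). At 3 h the values were 9.65, 11.05, 9.51 and 10.24 with isoproterenol, against 9.34, 9.10 and 9.30 with vehicle. The groups were apart there, with 1 isoproterenol array far above the others. The 3 h change of 0.87 ± 0.24 passed (adjusted p = 0.0153), but not without isoproterenol replicate 2 (0.56, adjusted p = 0.0862), without vehicle replicate 2 (0.80, 0.0722), without normalization (0.90, 0.332) or with only the arrays of 3 h in the fit (0.87, adjusted p = 0.104). From 1 to 3 h the isoproterenol mean went from 10.43 to 10.11 and the vehicle mean from 9.99 to 9.25. So the 3 h call goes with a lower vehicle level, although that vehicle fall (-0.75) did not pass. At 72 h the change was 0.73 ± 0.23 (adjusted p = 0.0244), with 9.88, 10.23, 10.03, 9.90 and 10.25 on isoproterenol arrays against 9.44, 9.27 and 9.26 on vehicle arrays. All isoproterenol arrays of 72 h were above the vehicle arrays, yet the call was lost without any 1 of the 3 vehicle arrays (adjusted p = 0.0561, 0.0625 and 0.0944) or without isoproterenol replicate 2 or 5 (0.0556 and 0.0521). From 24 to 72 h the isoproterenol mean went from 9.95 to 10.06 and the vehicle mean from 9.76 to 9.33.

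The other Jun probe sets did not pass at any of the 4 times in the main fit. Probe set 1369788_s_at changed by -0.19 ± 0.21 at 1 h and 0.04 ± 0.22 at 3 h (95% interval -0.40 to 0.49), and 1374404_at by 0.50 ± 0.29 and 0.37 ± 0.31. At 72 h 1369788_s_at changed by 0.44 ± 0.21 (95% interval 0.01 to 0.87, adjusted p = 0.154). Without isoproterenol 72 h replicate 1 that change was 0.56 and passed (adjusted p = 0.0471). Probe sets 1374404_at and 1389528_s_at were designed on the same sequence record. With 1 of 3 probe sets past the threshold at 3 and 72 h, a change in Jun rests on that probe set. The intervals of 1369788_s_at at 1 and 3 h end at 0.24 and 0.49, far below the changes of Junb.

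**Figure D2:**
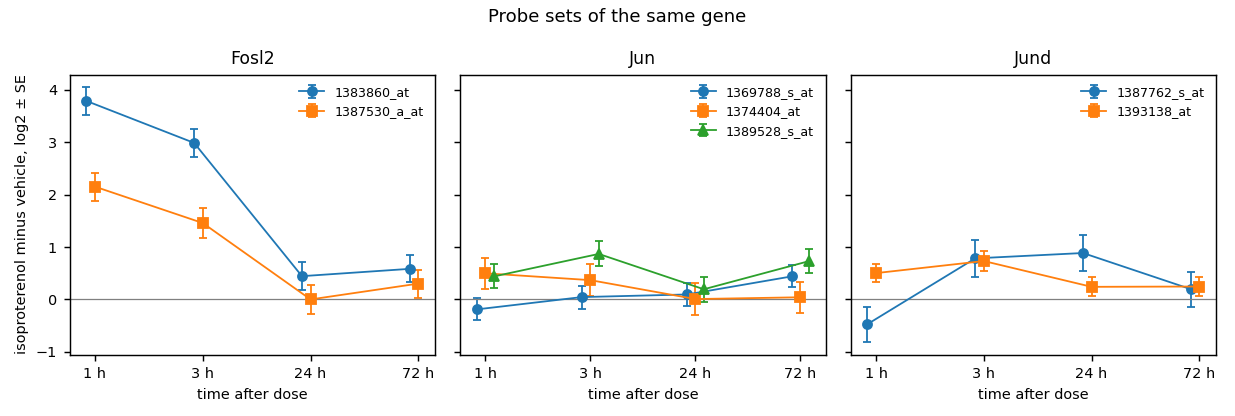
Isoproterenol minus vehicle change (log2, bars are SE) at 1, 3, 24 and 72 h for each tested probe set of Fosl2, Jun and Jund. Both Fosl2 probe sets are high at 1 and 3 h and near 0 later, while those of Jun and Jund stay within about 1 unit of 0.

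Jund, the Jun-type protein that quiescent cells hold in quantity, and whose window above carries the CRE, was bright on every array. Probe set 1393138_at at 1 h was at 10.79, 10.73, 11.14, 10.61 and 10.43 with isoproterenol, against 10.51, 9.86 and 10.34 with vehicle, a change of 0.50 ± 0.18 that did not pass (95% interval 0.15 to 0.86, adjusted p = 0.158). With array weights the 1 h change was 0.48 and passed (adjusted p = 0.0301). At 3 h the probe set was at 10.99, 11.20, 11.28 and 11.22 with isoproterenol, against 10.60, 9.98 and 10.75 with vehicle. All 4 isoproterenol arrays were above the 3 vehicle arrays, and the change of 0.73 ± 0.18 passed (adjusted p = 0.00721). It was lost without vehicle replicate 2, the lowest (0.50, adjusted p = 0.111), and without normalization (0.77, adjusted p = 0.353). The dim probe set 1387762_s_at did not pass at any time, and its group means were all under the detection level. At 24 h its groups did not overlap (change 0.89), and it passed with a pseudocount of 1 (adjusted p = 0.0323), without normalization (0.0221), with array weights (0.0213), with only the compared arrays (0.0474) and without isoproterenol 24 h replicate 3 (0.0489).

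Atf3 rose early and was the 1 gene of the family to pass at all 4 times. At 1 h it was at 10.43, 9.87, 9.86, 10.71 and 10.24 with isoproterenol, against 6.52, 6.5 and 7.51 with vehicle, a change of 3.38 ± 0.37 (adjusted p = 1e-07). At 3 h it was at 8.88, 10.95, 9.31 and 9.65 with isoproterenol, against 4.94, 5.65 and 6.26 with vehicle, a change of 4.08 ± 0.38 (adjusted p = 3.77e-09). Both comparisons were free of overlap. From 1 to 3 h the isoproterenol mean went from 10.22 to 9.70 and the vehicle mean from 6.84 to 5.62. The change at 3 h minus that at 1 h was 0.70 ± 0.53 and did not pass (adjusted p = 0.651), so a larger 3 h change was not shown. Within vehicle arrays Atf3 fell by 1.23, which did not pass except with array weights (-1.63, adjusted p = 0.0291). At 24 h it was at 6.85, 6.75, 6.07 and 6.70 with isoproterenol, against 5.26, 5.71 and 5.04 with vehicle, a change of 1.25 ± 0.38 (adjusted p = 0.0265). At 72 h it was at 5.67, 7.18, 6.08, 6.69 and 6.85 with isoproterenol, against 5.31, 5.18 and 4.39 with vehicle, a change of 1.54 ± 0.37 (adjusted p = 0.00358). The groups stayed apart at these times too, at much lower levels. The vehicle mean was under the detection level at 72 h (4.96) and close to it at 24 h (5.34). The 72 h change is therefore one against background, and the 24 h change is near it, so their sizes are not measured ratios. The 24 h call was lost without vehicle replicate 1 or 3 (adjusted p = 0.0783 and 0.119), without isoproterenol replicate 1, 2 or 4 (0.0712, 0.0804 and 0.0644), and with a pseudocount of 64 (0.106). The 72 h call was lost without vehicle replicate 3 (1.25, adjusted p = 0.0502).

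**Figure D3:**
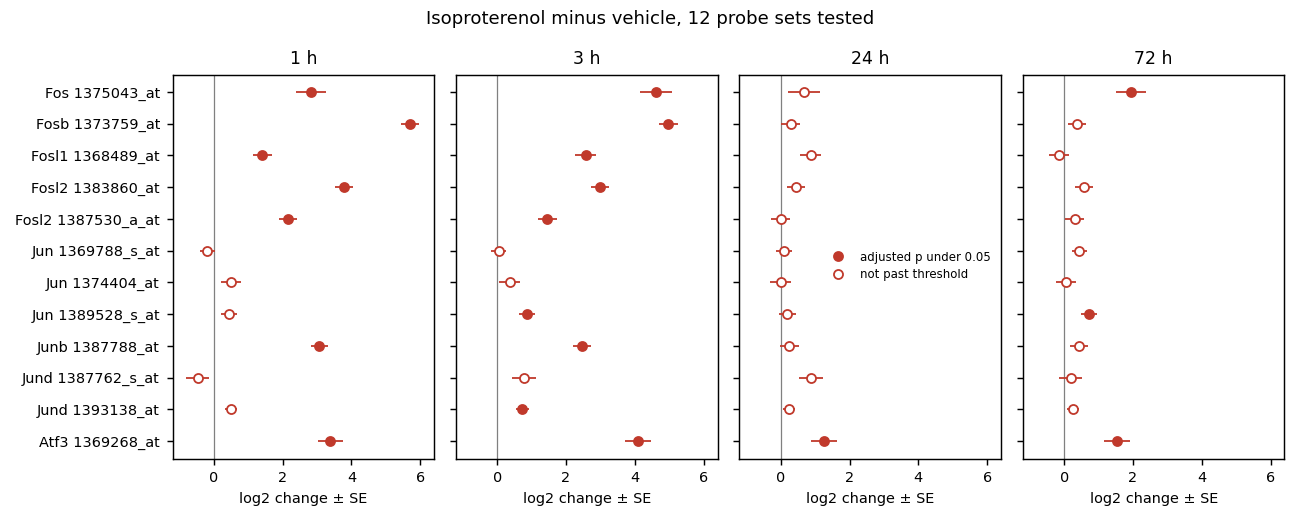
Isoproterenol minus vehicle change (log2, bars are SE) of the 12 tested AP-1 probe sets at 1, 3, 24 and 72 h; filled points have a limma adjusted p under 0.05. Filled points number 7, 9, 1 and 3, and the largest is Fosb at 1 h, 5.69.

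Across the family the response was mostly over between 3 and 24 h. The isoproterenol change at 24 h minus that at 3 h was lower in 7 of the 12 probe sets, against 3.19% of all. These were Fosb (-4.68 ± 0.39, adjusted p = 1.09e-09), Fos (-3.94 ± 0.65, 0.00026), Atf3 (-2.83 ± 0.54, 0.00148), both Fosl2 probe sets (-2.54 and -1.46), Junb (-2.22 ± 0.37, 0.000351) and Fosl1 (-1.69 ± 0.43, 0.0145). Without normalization the differences for Junb (-1.49, adjusted p = 0.116), Fosl1 (-0.83, 0.303) and Fosl2 1387530_a_at (-0.82, 0.259) lost their calls. With a pseudocount of 1 those of Fosl1 (adjusted p = 0.0548) and Fosl2 1387530_a_at (0.0552) were lost. Fosl2 1387530_a_at also lost its call with only the compared arrays (0.051), without vehicle 3 h replicate 2 (0.0914) and without vehicle 24 h replicate 1 (0.0584). Isoproterenol arrays alone gave 8 of 12 lower at 24 h than at 3 h, against 9.08% of all, the 8th being Jund 1393138_at (-0.91 ± 0.17, adjusted p = 0.000238). Without normalization that Jund call (-0.29, adjusted p = 0.47) and the one of Fosl2 1387530_a_at (-0.63, 0.0957) were lost, and Jun 1369788_s_at was higher at 24 h (1.06, 0.0191).

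Between 1 and 3 h the family divided. Within isoproterenol arrays 4 of 12 probe sets were lower at 3 h than at 1 h, against 1.89% of all: Fosb (-1.39 ± 0.24, adjusted p = 0.000511), Fosl2 1383860_at (-1.30 ± 0.24, 0.00101), Fosl2 1387530_a_at (-0.95 ± 0.24, 0.0197) and Junb (-0.80 ± 0.23, 0.0455). The rise of Fosl1 was 1 of 12, against 2.15% of all. The Junb call was lost in every fit without an isoproterenol array of 1 or 3 h except that without 1 h replicate 2, so it is at the edge of the test. Both Fosl2 calls were lost with a pseudocount of 1 (adjusted p = 0.0925 for 1383860_at and 0.182 for 1387530_a_at). That of 1387530_a_at was also lost without isoproterenol 3 h replicate 1 (0.0654) or 3 (0.0665). Tested as a difference of isoproterenol changes at 3 and 1 h, 0 of 12 passed by limma, against 0.58% of all, with 4 at an unadjusted p under 0.05. The change at 72 h minus that at 24 h passed by limma for 0 of 12, against 2.12% of all, with 1 at an unadjusted p under 0.05.

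Within a group, the same arrays tended to be high or low in many family probe sets. Isoproterenol 3 h replicate 2 was the highest of its 4 arrays in 8 of the 12 probe sets, where it was highest in 24.7% of all probe sets. In the isoproterenol 24 h group replicate 2 was highest in 8 of 12 (29.4% of all) and replicate 3 lowest in 8 of 12 (33.5% of all). In the 72 h group replicate 1 was lowest in 8 of 12 (24.1% of all) and replicate 5 highest in 6 of 12 (12.1% of all). Probe sets of 1 array are not independent, so these are descriptions with no test.

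Other bZIP factors, possible partners or rivals of AP-1, responded in part. Of 26 tested, 7 rose and 1 fell at 1 h, 8 rose and 4 fell at 3 h, 3 rose and 1 fell at 24 h, and 3 rose and 0 fell at 72 h. The shares that rose were 26.9%, 30.8%, 11.5% and 11.5%, against 2.37%, 6.94%, 10% and 13.3% of all genes, so those of 24 and 72 h were near the background. The shares that fell were 3.85%, 15.4%, 3.85% and 0%, against 1.04%, 6.33%, 7.19% and 8.71%. Their median changes were 0.07, 0.05, 0.19 and -0.02, and most did not pass. Crem, whose short form ICER represses cAMP-driven genes, rose by 2.98 ± 0.17 at 1 h and 3.59 ± 0.17 at 3 h (adjusted p = 4.41e-14 and 1.56e-15). Maff, a small Maf protein without a transactivation domain, rose by 2.97 ± 0.19 and 3.32 ± 0.19 (8.65e-13 and 9e-14). Nfil3, and Cebpb, an inducer of acute-phase genes, rose by 1.93 and 1.87 at 1 h. Cebpb rose by 2.13 at 3 h. Dbp, a clock-driven factor, fell by 1.70 ± 0.37 at 3 h (adjusted p = 0.00182). Cebpa rose by 1.92 at 24 h and 1.46 at 72 h. Without normalization 5 and 4 of the 26 were called at 1 and 3 h, and without isoproterenol 24 h replicate 3 the count at 24 h was 9.

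Of 23 kinases and promoter factors upstream of AP-1, 1, 3, 1 and 1 rose at 1, 3, 24 and 72 h, or 4.35%, 13%, 4.35% and 4.35%, where 2.37%, 6.94%, 10% and 13.3% of all genes rose. At the same times 1, 2, 1 and 5 fell, or 4.35%, 8.7%, 4.35% and 21.7%, where 1.04%, 6.33%, 7.19% and 8.71% of all genes fell. Map2k3, a kinase that activates p38, rose by 0.99 ± 0.14 at 3 h (adjusted p = 5.19e-06), and Mapk9, which encodes the kinase JNK2, fell by 0.89 ± 0.19 (0.00152). At 72 h Prkaca, the catalytic subunit of protein kinase A, fell by 1.15 ± 0.23 (adjusted p = 0.000812), and Elk1 by 0.75 ± 0.19 (0.00676). Without normalization the 4 lost their calls (adjusted p = 0.0984, 0.132, 0.367 and 0.871). Of 8 turnover genes, 2, 2, 2 and 1 rose (25%, 25%, 25% and 12.5%, against the shares of all genes that rose above). At the same times 0, 0, 0 and 1 fell (0%, 0%, 0% and 12.5%, against 1.04%, 6.33%, 7.19% and 8.71% of all genes). Zfp36 (tristetraprolin), which binds AU-rich elements such as that of Fos mRNA and speeds its decay, rose by 1.77 ± 0.31 at 1 h and 1.52 ± 0.33 at 3 h (adjusted p = 0.00039 and 0.00173). Those calls too were lost without normalization (0.0964 and 0.0778).

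Genes described elsewhere as AP-1 targets were among those higher with isoproterenol at each of the 4 times. Of 20 tested, 7, 11, 12 and 10 rose and 1, 0, 1 and 1 fell at 1, 3, 24 and 72 h, with median changes of 0.36, 1.08, 1.44 and 1.00. The shares that rose were 35%, 55%, 60% and 50%, where 2.37%, 6.94%, 10% and 13.3% of all genes tested rose. The list was chosen with earlier results of these data known, so its shares describe it and test nothing about AP-1. Those that fell were 5%, 0%, 5% and 5%, where 1.04%, 6.33%, 7.19% and 8.71% of all genes fell. Il6, an inflammatory cytokine, rose by 4.69 ± 0.38 at 1 h and 3.35 ± 0.40 at 3 h (adjusted p = 2.73e-10 and 4.03e-07). Ptgs2 (cyclooxygenase-2) rose by 2.94 ± 0.32 and 3.36 ± 0.34, and Sphk1 by 2.41 ± 0.24 and 3.98 ± 0.25. Timp1, an inhibitor of matrix metalloproteinases, rose at every time, by 2.58, 4.26, 4.24 and 2.90. Spp1 (osteopontin) rose by 7.65 ± 0.57 at 24 h (adjusted p = 5.68e-10) and 3.21 ± 0.55 at 72 h, when Tnc (tenascin-C) rose by 3.80 ± 0.64. Ets1 fell by 1.40 ± 0.12 at 1 h (adjusted p = 8.29e-10).

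Markers of other cells moved with these times. Of all genes tested, 2.37%, 6.94%, 10% and 13.3% rose and 1.04%, 6.33%, 7.19% and 8.71% fell at 1, 3, 24 and 72 h. The summed normalized intensity of 10 macrophage markers, of which 8 rose at 24 h and 9 at 72 h, was 6967 to 18590 at 24 h with isoproterenol against 1523 to 2337 with vehicle, and 2745 to 13910 at 72 h with isoproterenol against 1244 to 1551 with vehicle. That of 5 neutrophil markers, of which 4 rose at 3 h, was 474.3 to 684.6 at 3 h with isoproterenol and 119.8 to 236.9 with vehicle. At 1 h 2 of 5 rose, with sums of 228.3 to 323.7 with isoproterenol and 106.2 to 157.9 with vehicle. At 24 h 1 of the 5 rose, and at 72 h 0. Of 6 fibroblast markers, 5 rose at 72 h, with sums of 20030 to 43760 with isoproterenol and 12740 to 17350 with vehicle. Of these markers 1 fell at 1 h, and at 24 h 1 rose and 1 fell. Of 5 endothelial markers 0 rose by limma at any time, Emcn fell at 3 h (-1.23, adjusted p = 1.04e-05) and Kdr at 24 h (-0.92, 0.00141). Their sums at 24 h did not overlap, at 2422 to 3422 with isoproterenol and 4026 to 4597 with vehicle. No marker was listed at 0. The part of these cells in the family's values was not tested.

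**Figure D4:**
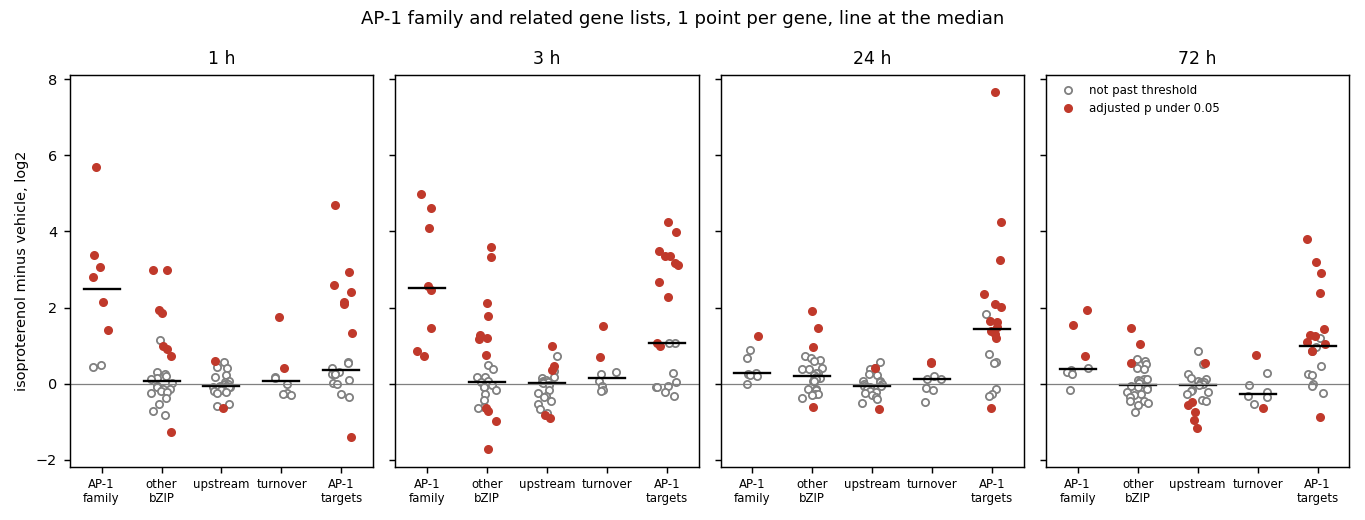
Isoproterenol minus vehicle change (log2) at 1, 3, 24 and 72 h, 1 point per gene, for the 8 AP-1 genes, 26 other bZIP factors, 23 upstream kinases and promoter factors, 8 turnover genes and 20 described AP-1 targets; red points have a limma adjusted p under 0.05 and black lines are medians. The AP-1 median is highest at 1 and 3 h (2.48 and 2.52), and the target median at 24 and 72 h (1.44 and 1.00).

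Over the 8 group means, family members were compared by Pearson correlation, which describes shared arrays and has no test. Fosb was closest to Fosl2 1383860_at (r = 0.995) and Junb (0.992), and Fos to Atf3 (0.94). Fosl1 was less like Fos (0.69), and Jun 1369788_s_at was unlike Fosb (-0.05). Among 2977 other genes whose means spanned at least 1 log2 unit, the nearest to Fos were Ier2 (0.985), an immediate early gene, Slc45a1 (0.962) and Otud1 (0.96). The nearest to Fosb were Il6 (0.99), Ppp1r15a (0.988) and Mat2a (0.988). For Fosl1 they were Txnrd1 (0.992), Ubash3b (0.991) and S100a8 (0.986), and for Fosl2 Irs2 (0.994), Nr4a2 (0.99) and Tslp (0.986). Junb was nearest to Hilpda (0.988), Csrnp1 (0.986) and Errfi1 (0.985), and Atf3 to Nfkbiz (0.988), Adamts4 (0.986) and Rab30 (0.981). Jund was nearest to Smad7 (0.966), Cdh22 (0.964) and Areg (0.959), and Jun to Cdr2 (0.931), Vom1r90 (0.927) and Siah2 (0.922).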

How the data were processed

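RNA was kept in RNAlater, extracted with an RNeasy kit, and 10 ug was labelled and hybridised to 1-colour RAT230_2 arrays, per the labels' protocols. The deposited intensity values are linear, 1 per probe set and array. No source used here says how the authors summarised and scaled them.

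Values were taken as log2(intensity + 16) and quantile normalized, since array medians spanned 1.214 on the log2 scale. After 57 control probe sets were left out, those reaching an intensity of 23 (the 40th percentile) on 3 arrays were tested. limma (3.58.1, R 4.3.3) fitted 8 group means to all 30 arrays (22 residual degrees of freedom, intensity trend). P-values are two-sided and Benjamini-Hochberg adjusted over the 24292 probe sets within each contrast, with a threshold of 0.05. Replicate arrays correlated between 0.943 and 0.985, and the number of arrays limits the precision. The fit was also run on simulated data, with independent noise and with changes only in bright probe sets. That run does not cover dim probe sets or deviations that probe sets of 1 array share.

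Genes were named from platform annotation. The brightest probe set stood for a gene, and list genes named are up to 4 with the largest called changes per time, beside Dbp, Ets1 and Il6 at 3 h, which were chosen after their values were seen. Members and lists were chosen with earlier results of these data known, so their shares against all genes are descriptions and not tests. Alternatives are given in the closing section.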

Additional observations from a re-analysis of the deposited data

Results flagged for a closer look

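Of the 48 sets of 4 or 5 arrays tested for 1 array far from the others, 3 had one, where chance gives about 1 in 20. Fosl2 1383860_at was at 6.82 on isoproterenol 3 h replicate 3, below the other 3 arrays. Jun 1369788_s_at was at 9.47 on isoproterenol 3 h replicate 2 and at 9.38 on isoproterenol 24 h replicate 2, above the other arrays of its group each time.

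The isoproterenol change at 24 h differed from that at 3 h in 7 probe sets, by limma's test of the difference: Fos (-3.94), Fosb (-4.68), Fosl1 (-1.69), Fosl2 1383860_at (-2.54) and 1387530_a_at (-1.46), Junb (-2.22) and Atf3 (-2.83), on the log2 scale. In each the change was smaller at 24 h.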

How the results depend on the processing

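Of 120 results (12 probe sets by 10 contrasts), 41 were called, and 24 of these were called under every alternative run; 68 uncalled results stayed uncalled. No family value turned its direction past the threshold. Called family probe sets at 24 h numbered 1, but 2 with a pseudocount of 1, 0 with 64, 3 without normalization, 3 with array weights and 2 with only the compared arrays in the fit. The difference between 24 and 3 h changes had 7, but 4 without normalization. Isoproterenol arrays at 3 h against 1 h had 5, but 2 with a pseudocount of 1 and 3 without normalization. The difference between 3 and 1 h changes had 0, but 1 with a pseudocount of 64, and that between 72 and 24 h had 0, but 1 with array weights. Vehicle arrays at 3 against 1 h had 1, but 0 with a pseudocount of 64 and 2 with array weights. The vehicle F test had 1, but 0 with a pseudocount of 64, 0 without the intensity trend and 2 with array weights. The cause of these shifts was not tested. With 1 array left out, the counts were 7 to 7, 7 to 9, 0 to 3 and 1 to 4 at 1, 3, 24 and 72 h. They were 0 to 1, 6 to 7 and 0 to 1 for the successive differences, 3 to 5 and 8 to 9 within isoproterenol arrays, 0 to 1 for vehicle arrays and 0 to 2 for the F test. Of 54 list results recomputed, 29 were called under every alternative run, and 1, Nfe2l1 at 24 h, turned, to 0.008 without normalization. Over all probe sets, calls at 1 h numbered 643, but 190 without normalization, 1699 with array weights and 1317 with only the compared arrays. At 3 h they were 2764, against 478 without normalization and 1332 with only the compared arrays. At 24 h they were 3169, against 5249 with array weights and 2103 with only the compared arrays. At 72 h they were 4333, against 7200, 2398 and 2380 with array weights, only the compared arrays and no normalization. With 1 array left out they were 393 to 607, 1868 to 3024, 1580 to 4413 and 2416 to 5654 at 1, 3, 24 and 72 h. The moves over 1.5 times were at 1 h without vehicle replicate 1 (412) or 3 (393). At 24 h they were without isoproterenol replicate 2 (1580) or 4 (2095) or vehicle replicate 2 (2082) or 3 (1856), and at 72 h without isoproterenol replicate 3 (2821) or vehicle replicate 1 (2428) or 3 (2416). The background shares move with these counts. Whether replicate numbers pair arrays is not settled here. The deviations of the 12 same-numbered isoproterenol and vehicle arrays correlated weakly, between -0.07 and 0.13. Of the 12, 5 correlated best with their own number, among them replicates 1, 2 and 3 of 3 h. The replicate block removed 1 family call, Junb within isoproterenol arrays at 3 h against 1 h (-0.75, adjusted p = 0.1), and changed no other family call.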
